A study of Homo sapiens with 27 samples.

Results

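The genes described here were close to silent in untreated A431 cells and gave reads in every A431 library treated with doxorubicin. A gene was a member if it had 20 or more raw counts in each of the 3 doxorubicin libraries and at most 3 in each of the 3 untreated libraries, with each Ensembl ID taken once. The rule kept 249 of the 24344 Ensembl IDs in the count table, which is 2.71% of the 9187 IDs that were at or below 3 counts in untreated A431 cells. The members were selected on the measured counts of these 6 libraries, so their levels in untreated and doxorubicin-treated A431 cells are given as a description, with no test. Tests were run only in the other 21 of the 27 libraries.

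The study treated 2 human cell lines with Compound Kushen Injection (CKI), a plant extract mixture used in Chinese cancer care, alone or with a chemotherapy drug, and sequenced total RNA at 48 h. A431 cells, an established epidermoid carcinoma line, were left untreated or given a vehicle control whose content the labels do not state, CKI at 1 mg/ml (a dilution of 1 in 20), doxorubicin, or CKI at 1 mg/ml plus doxorubicin. MDA-MB-231 cells, an established breast adenocarcinoma line, were left untreated or given CKI at 1 mg/ml, 5-fluorouracil (5-FU) at 10 µg/ml, or CKI plus 5-FU. Each of the 9 groups held 3 libraries, called biological replicates by the submitters. The doxorubicin dose is not given here because the labels name more than 1 dose without assigning them. MDA-MB-231 cells received no doxorubicin in this series, so no member was measured under that drug in a second line.

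Doxorubicin is an anthracycline that slips between DNA base pairs, traps topoisomerase II on broken DNA and can push histones off chromatin. Most genes of specialised tissues, such as hormones, photoreceptor proteins, meiotic proteins and placental proteins, are kept shut in an epithelial cell by closed chromatin, DNA methylation and the absence of the factors that drive them. Interferon lambda and CXCL9 belong to another class, since epithelial cells normally keep them off but can turn them on within hours when viral or self nucleic acid is sensed.

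The 3 members of that inducible class with a listed promoter are shown with the 250 bases before the transcription start, because their regulatory elements are well described. RefSeq promoters (build GRCh38.p14) were matched to 185 of the 249 members. Capitals mark the letters GAAANNGAAA, the core of an interferon response element on either strand, TATAAA, and a match to the NF-κB consensus. IFNL1 lies on the plus strand at chr19:39296157-39296406, IFNL3 on the minus strand at chr19:39245251-39245500 and CXCL9 on the minus strand at chr4:76007510-76007759.
IFNL1: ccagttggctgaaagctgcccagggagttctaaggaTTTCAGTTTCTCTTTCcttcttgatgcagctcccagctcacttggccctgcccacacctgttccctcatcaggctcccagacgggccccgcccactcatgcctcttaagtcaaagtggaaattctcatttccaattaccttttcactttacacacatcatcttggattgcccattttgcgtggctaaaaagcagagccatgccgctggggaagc
IFNL3: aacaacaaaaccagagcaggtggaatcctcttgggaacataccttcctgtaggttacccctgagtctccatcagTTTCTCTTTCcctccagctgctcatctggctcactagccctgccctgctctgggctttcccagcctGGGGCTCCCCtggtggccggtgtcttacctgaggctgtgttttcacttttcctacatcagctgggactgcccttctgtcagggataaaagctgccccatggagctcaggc
CXCL9: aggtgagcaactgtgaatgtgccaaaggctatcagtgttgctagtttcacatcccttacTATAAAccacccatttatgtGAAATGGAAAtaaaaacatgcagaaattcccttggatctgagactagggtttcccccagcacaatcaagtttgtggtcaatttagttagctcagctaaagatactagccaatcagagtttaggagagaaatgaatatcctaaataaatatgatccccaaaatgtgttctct
In IFNL1 the capitals hold 2 overlapping response element matches, which begin 214 and 208 bases before the start. In IFNL3 the response element match begins 176 bases and the NF-κB match 110 bases before the start. In CXCL9 the response element match begins 171 bases before the start. The response element letters were in 10 of the 185 matched promoters of 300 bases (5.41%) and in 3.57% of all 35116 promoters in the table. TATAAA was in 16.8% of matched members and 11.5% of all promoters, the AP-1 letters TGANTCA in 8.11% and 7.71%, and the cyclic AMP response element TGACGTCA in 1.62% and 1.85%. The NF-κB consensus was in 9.73% and 11.3%, and a p53 half-site in 6.49% and 6.63%. These are descriptions of letters on both strands, not of binding.

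Total counts ranged from 17757206 to 22809339 per library. The floor was 3 counts, the most that a count of 0 allows, worth 0.132 to 0.170 counts per 1e6 reads without TMM scaling. Levels are CPM (TMM-scaled counts per 1e6 reads counted), and on that scale 3 counts were 0.166 to 0.187 CPM in untreated A431 libraries, against 0.151 to 0.166 unscaled. Folds against the unscaled floor are thus somewhat too high and are given as approximate, not as lower bounds. Markers of the A431 line (among them keratins, EGFR and CDH1) summed to between 7920 and 10953 CPM in A431 libraries and to between 353 and 532 CPM in MDA-MB-231 libraries. The first untreated MDA-MB-231 library stood apart, with a chi-square per degree of freedom of 71.1 and 82.1 against its replicates and 2.65 between those replicates, and this measure was 9.91 to 28.3 among the vehicle control libraries. In bulk RNA, more cells that express a gene and more RNA per cell cannot be told apart.

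The members were mostly protein-coding. Of the 249, 224 (89.96%) were protein-coding, against 54.3% of the IDs silent in untreated A431 cells, 22 were long non-coding RNAs and 3 were transcribed pseudogenes. Their exons covered a median of 4380 bp, against 1991.5 bp over silent IDs and 3830.5 bp over all IDs with an annotation. A fixed count minimum selects for long transcripts, so length is tied to the rule. Chromosome 1 held 38 members, chromosome 3 held 30 and chromosome 19 held 23.

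Some members were neighbours, with 34 lying within 100 kb of another member in build GRCh37. IFNL3 and IFNL1 were 51157 bp apart and PSG1 and PSG6 22264 bp apart on chromosome 19. COL6A5 and COL6A6, collagen VI chains, were 32331 bp apart on chromosome 3. The libraries did not keep strand, and 86 members (34.5%) shared exon sequence with another gene, against 31.7% of silent IDs, so reads of such pairs cannot be separated. QPRT overlaps SPN, FBP1 overlaps PCAT7, and MIR137HG overlaps DPYD. Near-identical copies, among them the PSG and CTRB genes, could also exchange reads.

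Members near the thresholds were not set apart from genes just outside. AMPH, TFEC and AFF3 had a lowest doxorubicin count of 20, while CSAG1, TMEM132B and CTRB1 missed the rule at 19. FXYD1, ACKR4 and ANKRD31 reached 3 counts in an untreated library, while RELN, SIGLEC10 and C11orf96 missed it at 4. The lowest doxorubicin count was under 25 in 90 members, 63 members reached 3 counts in an untreated library, and 43 had no count in any untreated library.

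**Figure D1:**
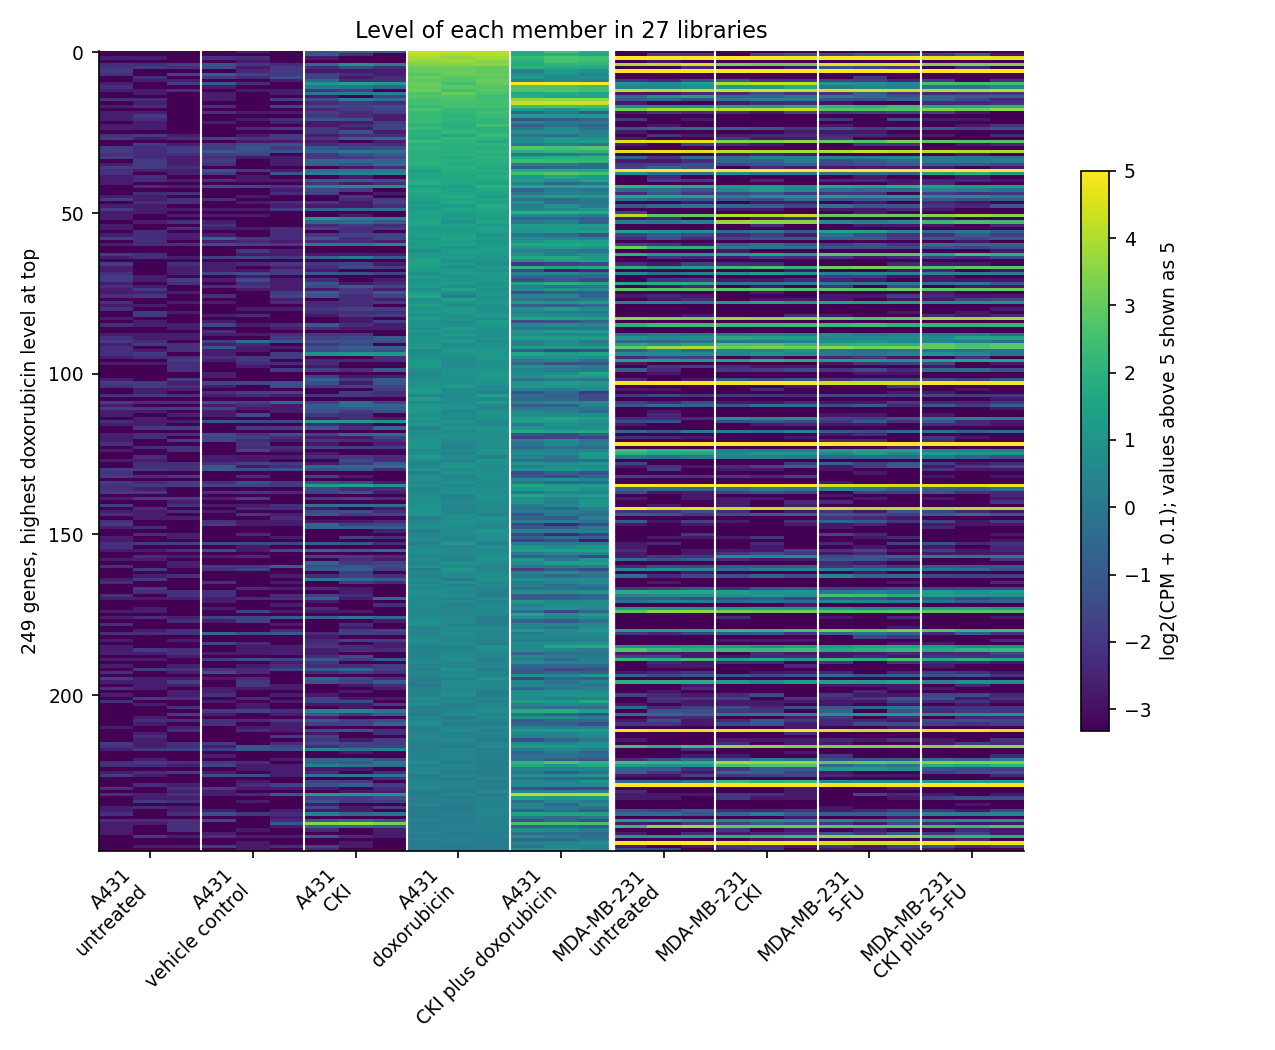
Level of each of the 249 members (rows, ordered by mean level in doxorubicin) in all 27 libraries (columns, 3 per group), as log2(CPM + 0.1) with values above 5 drawn as 5. The untreated and vehicle control columns are dark throughout, doxorubicin is lit by construction, and 53 rows reach 20 counts in each untreated MDA-MB-231 library.

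Under doxorubicin the members reached low to moderate levels. Their mean level was 0.998 CPM or more with a median of 1.63 CPM, against a median of 0.0569 CPM in untreated cells. MAFA-AS1, a long non-coding RNA beside the beta cell factor MAFA, had 17.2, 15.2 and 16.5 CPM and no untreated count. That is about 102-fold against the unscaled floor of 3 counts per library. Its doxorubicin libraries stood far above every untreated, vehicle control and CKI library.

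PPY, the pancreatic polypeptide of islet PP cells, had 12.2, 13.3 and 11 CPM under doxorubicin and no count in untreated cells, about 75.6-fold against the floor. C4BPB, the beta chain of a complement inhibitor made in liver, had 15, 12.9 and 14.3 CPM against at most 0.0601 CPM untreated. MIR137HG, the host transcript of the neuronal microRNA miR-137, had 10.7, 11.1 and 11.3 CPM against 0.111 to 0.187 CPM untreated. These genes come from pancreas, liver and brain, and none of their untreated libraries overlapped the doxorubicin libraries, as the rule required of every member.

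Among signalling ligands, IFNL1, a type III interferon that acts on epithelia, had 8.22, 8.44 and 7.68 CPM under doxorubicin and 0.120, 0.166 and 0.124 CPM untreated. CXCL9, an interferon-gamma induced chemokine that draws T cells, had 6.89, 8.59 and 8.04 CPM against at most 0.187 CPM untreated. IFNL3 was lower, with 1.23, 1.65 and 1.06 CPM, and TNFSF18, the ligand of the T cell receptor GITR, had 1.67, 2.30 and 2.33 CPM. In each of the 4, every doxorubicin library lay above every untreated library, as the rule required.

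Per kilobase of exon, which allows genes to be compared, MAFA-AS1 had 785 counts, PPY 245, IFNL1 210, NPPB 158, VPREB3 144 and PDE6G 137 counts per kb in doxorubicin libraries on average. NPPB encodes the cardiac hormone BNP, VPREB3 belongs to the pre-B cell receptor and PDE6G is the inhibitory subunit of the rod phosphodiesterase. At the bottom COL6A3, a collagen VI chain with a long transcript, had 1.12 counts per kb.

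Reads over silent genes became more common in general under doxorubicin. Of the 9187 silent IDs, 1329 to 1639 had a count in each untreated library, 1395 to 1534 with vehicle control, 2024 to 2181 with CKI, 5407 to 5538 with doxorubicin and 5424 to 5457 with CKI plus doxorubicin. Over the silent IDs that were not members, counts per kb were 0.0659 to 0.0882 untreated, 0.188 to 0.224 with CKI, 1.03 to 1.10 with doxorubicin and 1.16 to 1.21 with CKI plus doxorubicin. The members were picked for high counts in these doxorubicin libraries and the other silent IDs are those that failed the rule, so the distance between them is set by the selection and is given as a description. Members stood a median of 7.55 times higher in doxorubicin, 210 of 249 by 3 times or more and 84 by 10 times or more, and 39 by less than 3 times. The lowest, COL6A3, stood at 1.06 times. The part of this general rise in the members' counts was not tested.

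**Figure D2:**
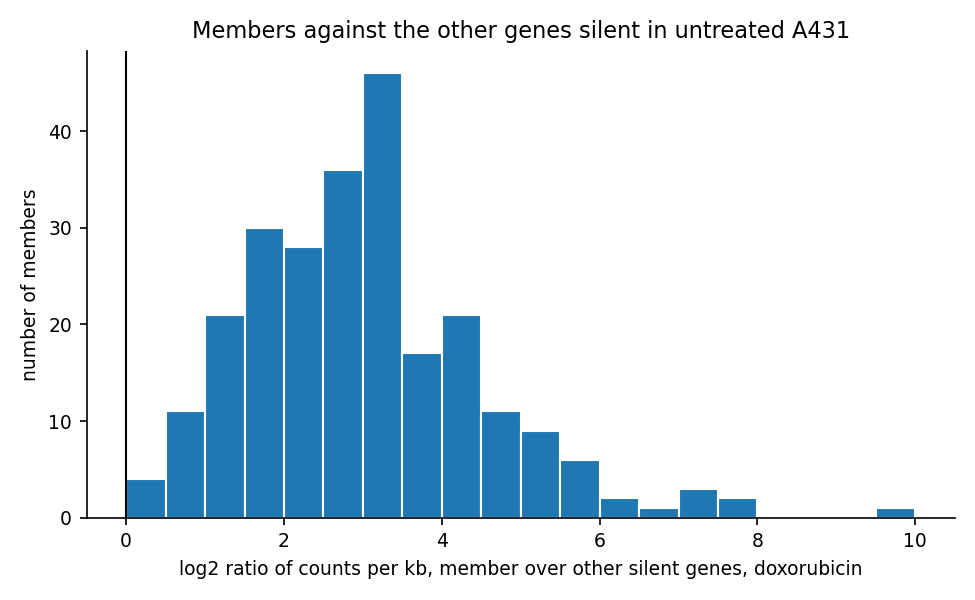
Histogram of the 249 members by the log2 ratio of their counts per kb to those of the other silent genes in doxorubicin libraries, with the number of members on the y axis. The ratio has a median of 7.55 on the linear scale, and the place of the members to the right of the line at equality follows from how they were selected.

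Markers of other cell types in the same libraries give a scale. The 2 liver markers (ALB, APOA1) were at 0 untreated and summed to 0.549 to 0.788 CPM with doxorubicin. The 4 neural markers summed to 0.901 to 1.88 CPM untreated and to 13.5 to 16.1 CPM with doxorubicin, while the 5 blood cell markers, of which PTPRC is a member, summed to 6.91 to 8.62 and 9.01 to 10.7 CPM. The 4 fibroblast markers, of which COL3A1 is a member, summed to 22.0 to 29.4 CPM untreated and 41.4 to 46.8 CPM with doxorubicin, and the 2 endothelial markers to 22.0 to 25.3 and 10.3 to 12.1 CPM. Their part in the members' counts was not tested.

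**Figure D3:**
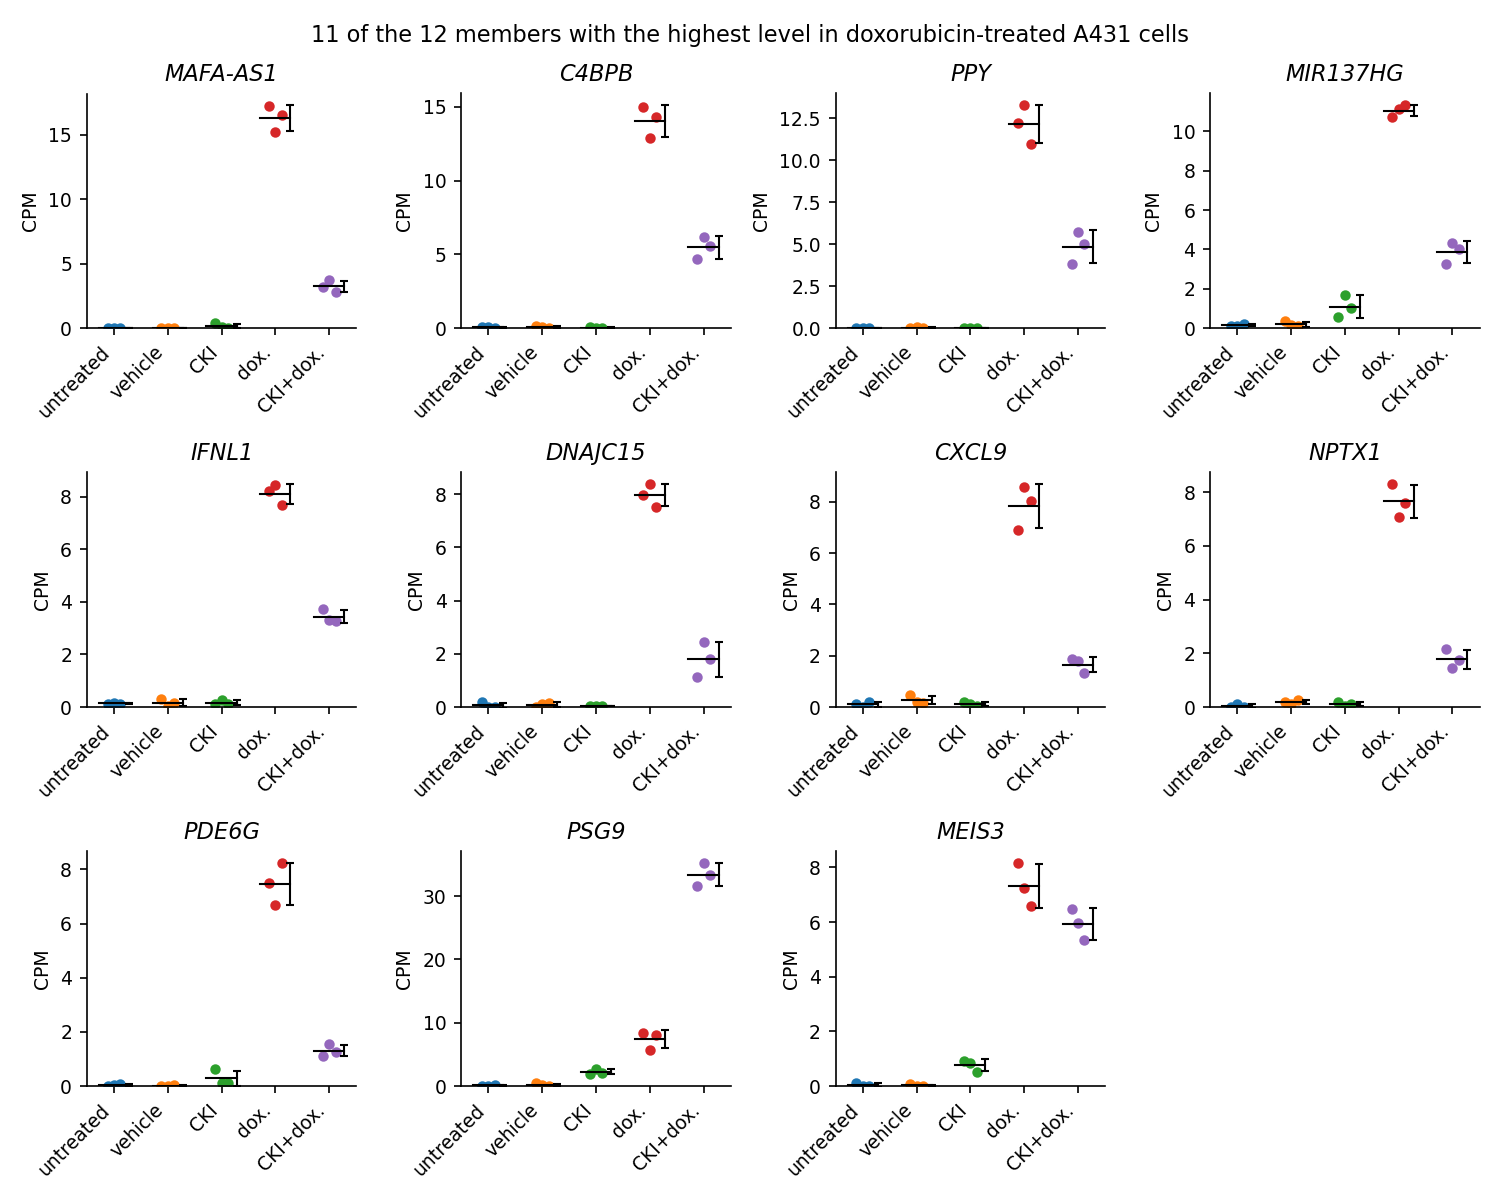
CPM in the 15 A431 libraries for 11 of the 12 members of highest mean CPM in doxorubicin, a panel each, with points for libraries, a horizontal line for the mean and a bar for the SD (n = 3). The untreated and vehicle control points lie near 0, and PSG9 is at 31.5 to 35.3 CPM with CKI plus doxorubicin. In 10 of the panels every CKI plus doxorubicin point lies below every doxorubicin point, as was so for 26.9% of the 22455 IDs with a count in either group. Genes picked for high doxorubicin levels tend to be lower in any other group.

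To describe the members by what they are known to do, 129 of them were placed in 15 groups, made after their values were seen. The cell surface receptors were the largest with 21, including GCGR (glucagon receptor), NPY1R (neuropeptide Y receptor), P2RY1 (nucleotide receptor), CASR (calcium-sensing receptor) and RET. The group held 1.53 CPM as the median of its means under doxorubicin, with the highest at 7.11 CPM. The 20 transcription factors included MEIS3 and HOXD12 (homeobox), PAX5 (B cells), EOMES (T cells and early embryo), TAL1 (blood) and NR2E1 (neural stem cells), at 1.01 to 7.33 CPM. Blood cell genes numbered 12, liver and plasma protein genes 10 and synapse genes 10.

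The germ line group held 5 members. SYCP1, which builds the synaptonemal complex of meiosis, had 2.71, 1.85 and 1.92 CPM under doxorubicin and no count in untreated, vehicle control or CKI libraries. DDX4, the germ cell helicase VASA, had 1.48, 1.60 and 1.06 CPM and no untreated count. SLC7A14, a transporter of neurons and retina, had 2.17, 1.80 and 1.72 CPM and no count in untreated, CKI or any MDA-MB-231 library. PTPRC, the leukocyte antigen CD45, had 1.28, 1.55 and 1.16 CPM and no count in untreated, vehicle control or CKI libraries.

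Against gene lists made with earlier results known, members made up uneven shares of the genes silent in untreated cells, where 2.71% was the share over all silent IDs. The lists are of protein-coding families, and protein-coding genes were 54.3% of silent IDs but 89.96% of members. The share over silent protein-coding genes alone is thus higher than 2.71%, and a list share somewhat above 2.71% does not set that list apart. Of 43 silent muscle contractile genes 4 were members (9.30%), of 190 silent ion channels 10 (5.26%), of 147 solute carriers 7 (4.76%), and of 21 silent interferon genes 2 (9.52%). Of 551 silent G protein-coupled receptors 9 were members (1.63%) and of 195 silent cancer-testis genes 4 (2.05%). The remaining lists gave 1 of 3 for interferon-stimulated genes, 1 of 64 for chemokines and interleukins, 1 of 11 for the tumor necrosis factor superfamily, 4 of 132 for zinc finger genes, 4 of 107 for homeobox genes, 2 of 67 for protocadherins and cadherins, 2 of 64 for blood cell genes and 2 of 46 for neuronal genes. No p53 target gene among 45, of which 1 was silent, and no replication-dependent histone gene among 36, of which 9 were silent, was a member. These shares are descriptions and were not tested.

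The vehicle control left the members low. In each of its 3 libraries 187 members had at most 3 counts and none had 20 or more in all 3, with a median of 0.0523 CPM. The highest were RSPH4A, a radial spoke protein of cilia, with 0.638, 0.306 and 0.384 CPM, TEX14, a germ cell bridge protein, with 0.174, 0.663 and 0.329 CPM, and then MYOM3, RIMKLB and ANKRD31.

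CKI alone raised some members above vehicle control. In CKI libraries 116 members were still at most 3 counts in each and 7 reached 20 in each, which were PSG9, TOX, SYNC, LMOD1, FBP1, FCRLA and QPRT. The test was edgeR's quasi-likelihood test over the 9 A431 libraries that the rule did not use. A gene was called where its Benjamini-Hochberg adjusted p was under 0.05 and its log2 fold change exceeded 1 in size. The SE given after ± here and below is the log2 fold change divided by the square root of the test's F statistic. It is not a spread of replicates and can fall under counting error where a group has few counts. Of the 249 members, 208 passed the filter on low counts, 63 were called higher and 2 lower with CKI, and 143 were not called. Over all 15017 genes tested 11.3% were called higher and 8.37% lower. Those genes span all levels, whereas 187 of the 249 members had at most 3 counts in each vehicle control library. A fall could hardly be called in them, so the split between higher and lower is a description. Of the 208, 164 had under 10 counts in every vehicle control and CKI library and passed through the CKI plus doxorubicin libraries. Others that lacked 10 counts in some CKI libraries may also have needed them to pass.

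QPRT, which makes the NAD precursor nicotinate mononucleotide, had 11.2, 12.8 and 9.78 CPM with CKI and 0, 0 and 0.384 CPM with vehicle control, a log2 fold change of 6.30 ± 0.38 (SE, n = 3, adjusted p = 1.8e-09 by edgeR). The CKI level lay above its doxorubicin level of 1.03 to 1.21 CPM. FCRLA, an Fc receptor-like protein of B cells, had 2.31, 1.96 and 1.81 CPM with CKI and 0.0580, 0.102 and 0.384 CPM with vehicle, 3.34 ± 0.36 on the log2 scale (adjusted p = 1.2e-06 by edgeR).

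FBP1, the gluconeogenic enzyme fructose-bisphosphatase, had 2.46, 2.75 and 1.87 CPM with CKI against 0.165 to 0.232 CPM with vehicle control, a log2 fold change of 3.43 ± 0.33 (adjusted p = 3.1e-07 by edgeR). LMOD1, a smooth muscle actin regulator, had 2.31, 2.12 and 1.70 CPM against 0.219 to 0.348 CPM, 2.78 ± 0.31 on the log2 scale (adjusted p = 1.4e-06 by edgeR). In both genes every CKI library lay above every vehicle control library.

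CTRB2, a digestive chymotrypsinogen of the pancreas, had 2.15, 1.11 and 0.961 CPM with CKI and no vehicle control count, about 9.44-fold against the floor. OR10H1, an olfactory receptor, had 0.974, 0.635 and 0.396 CPM and no vehicle control count, about 4.48-fold against the floor. CACNA1G, a T-type calcium channel, had 0.513, 0.159 and 0.396 CPM, about 2.38-fold against the floor. All 3 passed the test, and no CKI library of theirs overlapped a vehicle control library.

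RSPH4A and MKX were the 2 members called lower with CKI. RSPH4A had 0.103, 0.212 and 0.170 CPM with CKI, with a log2 fold change of -1.50 ± 0.50 from vehicle control (adjusted p = 0.016 by edgeR). MKX, a tendon homeobox factor, had no CKI count and 0, 0.204 and 0.0548 CPM with vehicle control, levels near 3 counts, so no fold is given. The edgeR call for RSPH4A was lost without the first vehicle control library (adjusted p = 0.105) or the first CKI library (adjusted p = 0.0669). That for MKX was lost without the second vehicle control library (adjusted p = 0.231) or any CKI library (adjusted p 0.0799 to 0.0868).

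With CKI plus doxorubicin no member had at most 3 counts in all 3 libraries, although 1, 3 and 3 members were at or below 3 counts in the single libraries. In that group 140 members had 20 or more counts in each library, and the median was 1.28 CPM. All 208 members tested were higher than vehicle control and none was lower, while 19.7% of all genes tested were called higher and 11.7% lower, and DESeq2 gave the same 208 and 0. At an unadjusted p under 0.05 none was lower either. The 41 members that could not be tested had 1 to 22 counts with CKI plus doxorubicin and at most 6 with vehicle control, and in 32 of them every CKI plus doxorubicin library lay above every vehicle control library, as was so for 39.99% of the 21984 IDs with a count in either group. A member that passed the filter only through these libraries had to differ, so 208 of 208 is a description. The median log2 difference was 5.02, or 4.07 with the 45 members at 0 counts in vehicle control set to their floor.

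Against CKI alone, 197 of the 208 were higher with CKI plus doxorubicin and 1 was lower, when 14.7% of all genes tested were called higher and 9.02% lower. Of the 208, at least 164 passed the filter only through the CKI plus doxorubicin libraries and had to differ, so this count is a description too. Others that lacked 10 counts in some CKI libraries may also have needed those libraries to pass. Only 22 members had 10 or more counts in every library of CKI or of vehicle control. The median log2 difference was 3.66, or 3.43 with the 22 members without CKI counts at their floor. The lower member was CTRB2, at 0.513, 0.576 and 0.403 CPM against 2.15, 1.11 and 0.961 CPM with CKI, a log2 fold change of -1.40 ± 0.38 (adjusted p = 0.0052 by edgeR), which was -0.97 and no longer called without the first CKI library. QPRT was not called, at 5.83, 5.47 and 5.79 CPM against 9.78 to 12.8 CPM with CKI, with a log2 fold change of -0.88 ± 0.18.

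NPPB, the BNP gene, had 20.2, 19.7 and 20.2 CPM with CKI plus doxorubicin, no count with vehicle control and 0.103 to 0.159 CPM with CKI. It was about 134-fold above the floor of vehicle control. Above CKI it was 7.35 ± 0.20 on the log2 scale (SE, n = 3), where the few CKI counts leave the SE too small. NPPB, SEPTIN14, IQGAP2, PPY, OSTN and the 4 immune ligands had under 10 counts in every vehicle control and CKI library and could be tested only through their CKI plus doxorubicin counts, so their differences are given with no p. SEPTIN14, a septin of testis, had 3.83, 3.89 and 3.37 CPM and no count with vehicle or CKI, about 24.8-fold above the floor of vehicle control. IQGAP2, a scaffold of the cell cortex, had 3.36, 3.07 and 3.22 CPM, about 21.6-fold above the floor of vehicle control.

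PPY had 3.83, 5.71 and 5.03 CPM with CKI plus doxorubicin, no CKI count, and 1 vehicle control count in all. It was about 33.0-fold above the floor of CKI. OSTN, the muscle and bone hormone osteocrin, had 2.85, 2.21 and 2.52 CPM and no count with vehicle control or CKI, about 17.2-fold above the floor of CKI.

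The 4 immune ligands were higher in every CKI plus doxorubicin library than in any vehicle control or CKI library. IFNL1 had 3.73, 3.31 and 3.27 CPM against 0.0510 to 0.290 CPM with vehicle control, a log2 fold change of 4.35 ± 0.35 (SE, n = 3). CXCL9 had 1.87, 1.78 and 1.31 CPM against 0.165 to 0.464 CPM, 2.58 ± 0.37 on the log2 scale. TNFSF18 had 1.07, 1.34 and 1.01 CPM, 2.36 ± 0.36 above vehicle control on the log2 scale. The fourth, IFNL3, had 1.63, 1.73 and 1.66 CPM, and none of the 4 was called with CKI alone. Of 59 tested interferon-stimulated genes 42 were higher and 0 lower with CKI plus doxorubicin than with vehicle control (median log2 fold change 1.77). Over all genes tested 19.7% were higher and 11.7% lower. With CKI alone 0 of the 59 were higher and 4 lower, against 11.3% and 8.37% of all genes tested.

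Doxorubicin alone and CKI plus doxorubicin can only be set side by side, since doxorubicin chose the members and genes selected for high values tend to be lower in any other group. The ratio of mean CPM with CKI plus doxorubicin to doxorubicin had a median of 0.725, with quartiles at 0.408 and 1.06. It was under 0.5 in 87 members and over 2 in 9. All 3 CKI plus doxorubicin libraries lay below all 3 doxorubicin libraries in 125 members, above in 38, and the groups overlapped in 86. Over the 22455 IDs with a count in either group, 26.9% lay below and 27.3% above in the same way.

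The highest ratio was that of FCRLA, with 17.8, 17.2 and 17.0 CPM under CKI plus doxorubicin and 0.985, 1.45 and 1.06 CPM under doxorubicin, a ratio of 14.9. QPRT had a ratio of 5.11, PSG9 of 4.53 and SUN3, a nuclear envelope protein of testis, of 3.92. NPPB had 5.61, 5.69 and 5.46 CPM under doxorubicin and a ratio of 3.58. At the other end, MYCL-AS1 had 2.22, 2.30 and 1.82 CPM under doxorubicin and 0.280, 0.0480 and 0.101 CPM with CKI added, a ratio of 0.0677. MIOX, the kidney inositol oxygenase, had a ratio of 0.0902, MGP, an inhibitor of calcification, of 0.0915 and LNCEGFL7OS of 0.116.

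By role, the 4 immune ligands had a median ratio of 0.484, whereas the germ line genes had 0.975, the collagens 0.990 and the pregnancy-specific glycoproteins 1.82. The ratio ran from 0.211 to 1.27 in the immune ligands and from 0.348 to 4.53 in the pregnancy-specific glycoproteins. The groups were made with these values known.

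**Figure D4:**
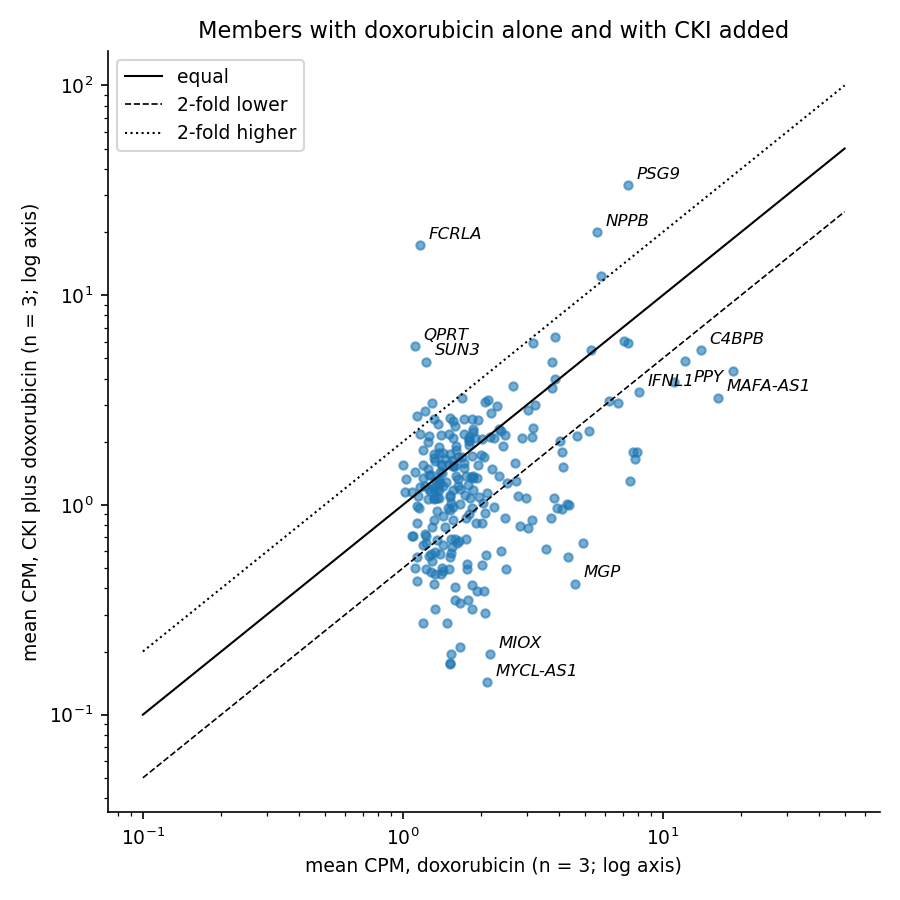
Mean CPM (n = 3) of each of the 249 members with doxorubicin (x axis) and with CKI plus doxorubicin (y axis), both on log axes, with lines at equal level and at 2-fold higher and lower. FCRLA lies highest above equality at a ratio of 14.9 and MYCL-AS1 lowest at 0.0677, and no member lies left of about 1 CPM because the rule set a minimum.

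In MDA-MB-231 cells a minority of the members was expressed without any drug. In untreated cells 53 members had 20 or more counts in each library and 132 had at most 3 in each, when 4.67% of all IDs silent in A431 reached 20 counts. The counts of members at 20 or more were 56 with CKI, 55 with 5-FU and 53 with CKI plus 5-FU. The highest was ADGRF5, an adhesion receptor of endothelium and lung, with 259, 241 and 254 CPM in untreated cells, against 2.61 to 3.54 CPM in A431 under doxorubicin. COL6A3 had 109, 138 and 132 CPM, FBP1 56.4, 61.7 and 59.6 CPM, and ME3, the mitochondrial malic enzyme, 51.5, 54.4 and 54.0 CPM. DNAJC15, a mitochondrial co-chaperone, had 64.7, 41.6 and 41.0 CPM and C4BPB 45.4, 32.2 and 31.2 CPM, in both with the first library highest. Other members, such as SYCP1, CXCL9 and SLC7A14, had no count in untreated MDA-MB-231 cells.

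Filtering in the 12 MDA-MB-231 libraries left 83 of the 249 members for testing, and 75 were tested in both lines, 133 in A431 alone, 8 in MDA-MB-231 alone and 33 in neither. With 5-FU against untreated cells 18 were called higher and 8 lower, when 6% of the 13894 genes tested were called higher and 7.33% lower. By adjusted p alone, with no fold threshold, the edgeR split was 22 higher and 23 lower. RTL9, a retrotransposon-derived gene, had 2.17, 2.30 and 1.72 CPM with 5-FU and 0.472, 0.416 and 0.0987 CPM untreated, a log2 fold change of 2.63 ± 0.36 (adjusted p = 5.6e-05 by edgeR). COL15A1, a basement membrane collagen, had 11.6, 12.8 and 12.5 CPM against 2.20, 2.27 and 2.57 CPM, 2.39 ± 0.12 on the log2 scale (adjusted p = 3e-08 by edgeR). RSPH4A (1.94 ± 0.52) and FER1L6, a ferlin (2.54 ± 0.58), were also called higher.

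Among the members lower with 5-FU, COL6A3 had 28.1, 28.9 and 30.0 CPM, a log2 fold change of -2.12 ± 0.09 from untreated cells (adjusted p = 5.6e-09 by edgeR). FBP1 had 21.7, 22.2 and 21.1 CPM, -1.45 ± 0.06 (adjusted p = 8.9e-09 by edgeR). HSD3B1, a steroid hormone enzyme, had 0.323, 0.287 and 0.240 CPM with 5-FU and 8.39, 3.70 and 3.80 CPM untreated, -4.19 ± 0.40 (adjusted p = 3.6e-06 by edgeR), and -3.70 without the first untreated library. SCARA5, a ferritin receptor, and PLXNA4, a semaphorin receptor, were also lower, with log2 fold changes of -1.77 ± 0.21 and -1.71 ± 0.19. Without the first untreated library 18 members were called higher and 10 lower.

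With CKI against untreated MDA-MB-231 cells 16 members were called higher and 8 lower, when 3.79% of all genes tested were called higher and 2.22% lower. TRIM54, a muscle RING finger protein, had 1.42, 1.5 and 1.67 CPM with CKI and 0.0525, 0.139 and 0.148 CPM untreated, a log2 fold change of 3.66 ± 0.32 (adjusted p = 5.9e-06 by edgeR). MKX had 1.17, 0.982 and 1.11 CPM against 5.46, 4.03 and 4.49 CPM, -2.10 ± 0.17 (adjusted p = 2.6e-06 by edgeR). HSD3B1 had 0.965, 0.888 and 0.709 CPM with CKI, -2.62 ± 0.33 from untreated cells, and -2.13 without the first untreated library. SCARA5 (-1.71 ± 0.21) and PIK3AP1, a B cell signalling adaptor (-1.74 ± 0.36), were called lower. Without the first untreated library 19 members were higher and 7 lower.

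With CKI added to 5-FU, 10 members were called higher and 10 lower than with 5-FU, when 5.28% of all genes tested were called higher and 4.52% lower. RCAN2, a regulator of calcineurin, had 3.59, 3.00 and 4.03 CPM against 0.600, 1.10 and 0.814 CPM with 5-FU, a log2 fold change of 2.07 ± 0.21 (adjusted p = 8.4e-06 by edgeR). HECW2-AS1, a long non-coding RNA, was also higher (2.03 ± 0.32). RTL9 had 0.331, 0.268 and 0.192 CPM, -2.94 ± 0.37 from 5-FU alone (adjusted p = 4.4e-05 by edgeR). SCUBE2, a secreted hedgehog cofactor (-2.02 ± 0.60), LINC02701 (-1.94 ± 0.57) and PIK3AP1 (-1.69 ± 0.34) were lower. Without the third 5-FU library the edgeR adjusted p of SCUBE2 was 0.0606, and without the first that of LINC02701 was 0.0734. COL15A1 was lower by the same comparison, at 3.87, 4.11 and 3.64 CPM (-1.66 ± 0.12).

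The pregnancy-specific glycoproteins, carcinoembryonic antigen relatives that the placenta secretes into the mother's blood, had 4 members here. All 4, PSG9, PSG8, PSG1 and PSG6, were called higher with CKI in both lines, but the A431 call of PSG6 rested on few counts and was easily lost, as given below. PSG9 had 0.406, 0.102 and 0 CPM with vehicle control, 1.95, 2.70 and 2.09 CPM with CKI, 8.37, 5.74 and 7.99 CPM with doxorubicin and 31.5, 35.3 and 33.4 CPM with CKI plus doxorubicin. Its log2 fold change with CKI was 3.63 ± 0.44 in A431 (adjusted p = 3.3e-06) and 3.15 ± 0.15 in MDA-MB-231 (adjusted p = 3.9e-08), both by edgeR. In MDA-MB-231 it had 1.89, 1.53 and 2.52 CPM untreated and 16.2, 18.6 and 18.2 CPM with CKI. The CKI libraries lay above the control libraries in both lines.

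PSG1 had 0.513, 0.635 and 0.396 CPM with CKI in A431, where vehicle control gave 1 count in all, a ratio of 28.5 (95% exact interval for counting error alone 4.72 to 1163). In MDA-MB-231 PSG1 had 13.0, 11.5 and 11.5 CPM with CKI and 1.10, 0.925 and 1.18 CPM untreated, 3.48 ± 0.16 on the log2 scale (adjusted p = 2.1e-08 by edgeR). PSG8 had 0.308, 1.11 and 0.735 CPM with CKI in A431 (3.09 ± 0.68, adjusted p = 0.001 by edgeR) and 0.965, 1.22 and 1.06 CPM in MDA-MB-231 against 0.296 to 0.602 CPM untreated (1.27 ± 0.39, adjusted p = 0.022 by edgeR). The MDA-MB-231 call of PSG8 was lost by edgeR without the third untreated, the second CKI or the third CKI library (adjusted p 0.0524 to 0.0741). PSG6 reached 0.0513 to 0.106 CPM with CKI in A431, at most 2 counts, and 2.03, 1.36 and 1.72 CPM in MDA-MB-231 (4.02 ± 0.35, adjusted p = 4.8e-06 by edgeR).

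The A431 call for PSG6 was lost in DESeq2 (adjusted p = 0.0769), with no filter on low counts (0.0641), with a replicate block (0.0584) and with any library of either group left out (adjusted p 0.0591 to 0.112). With CKI added to 5-FU, PSG9 (1.67 ± 0.16), PSG1 (1.90 ± 0.16) and PSG6 (1.84 ± 0.31) were called higher and PSG8 was not, at 0.0959 to 0.472 CPM. In A431 cells PSG9 was called higher with CKI plus doxorubicin than with CKI, and PSG1 was not called, at 0.887, 1.20 and 0.503 CPM. PSG8 was called higher too, but it passed the filter only with the help of its CKI plus doxorubicin counts, so its call is a description. PSG6 was also higher, but it passed the filter through its CKI plus doxorubicin counts alone and had to differ, so this is likewise a description.

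Of the 75 members tested in both lines, 26 were called higher with CKI in A431, 14 in MDA-MB-231 and 8 in both (10.7%). Of all 13081 genes tested in both lines, 9.12% were called higher in A431, 3.35% in MDA-MB-231 and 1.38% in both. Those genes span all levels, whereas the rule kept genes near 0 in untreated A431 cells, and the median member had 0.0523 CPM with vehicle control. A member could thus hardly be called lower in A431, so the members' shares are a description and not a like comparison. The 8 were PSG1, PSG6, PSG8, PSG9, FER1L6, MYOM1, SUN3 and RCAN2, the first 4 of them members of a gene family. Among them, PSG6 lost its A431 call with any library of either group left out. MYOM1, an M-band protein of striated muscle, had log2 fold changes of 2.09 ± 0.36 and 1.99 ± 0.49, SUN3 2.56 ± 0.68 and 1.44 ± 0.14, RCAN2 2.77 ± 0.58 and 1.70 ± 0.17, and FER1L6 2.72 ± 0.59 and 3.34 ± 0.51, in A431 and MDA-MB-231 in that order. The control was vehicle in A431 and untreated cells in MDA-MB-231.

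**Figure D5:**
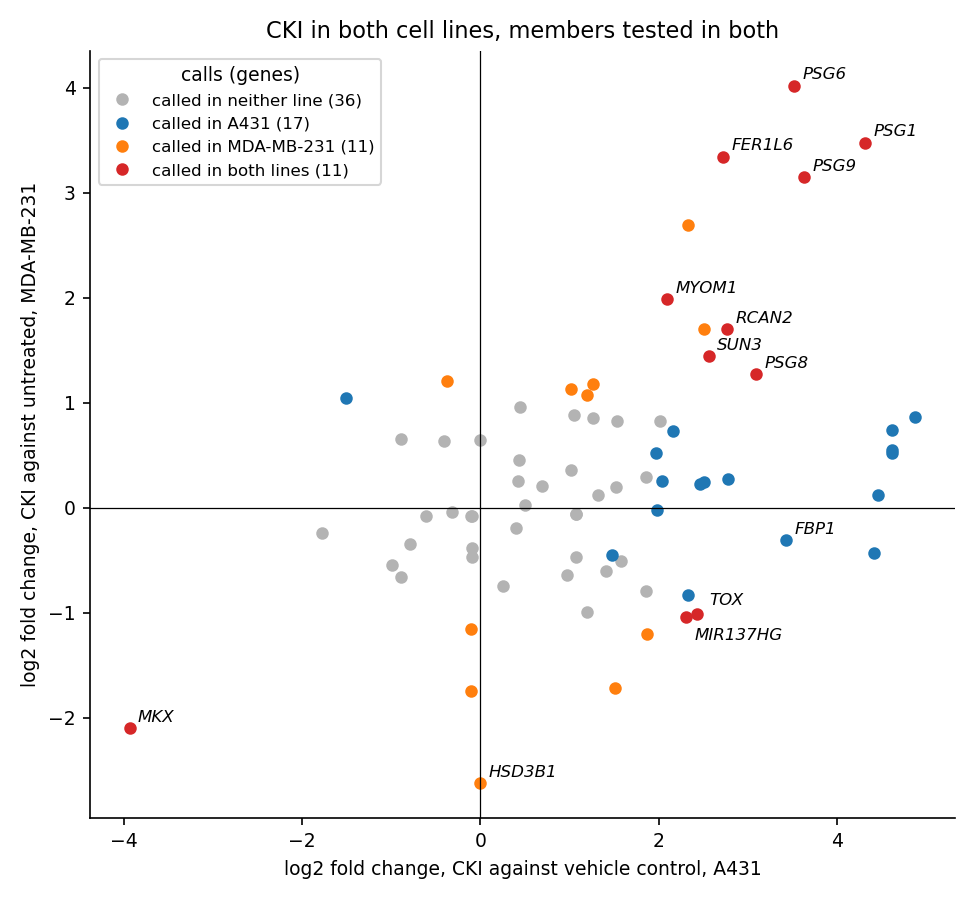
Log2 fold change with CKI in A431 (x axis, against vehicle control) and in MDA-MB-231 (y axis, against untreated cells) for the 75 members tested in both, coloured by where they were called. Grey marks 36 members called in neither line, 17 were called in A431 alone, 11 in MDA-MB-231 alone and 11 in both, of which MKX was lower in both and TOX and MIR137HG moved in opposite directions.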

How the data were processed

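Total RNA of 27 libraries was sequenced as unstranded paired ends. The authors deposited raw counts per gene, on 24566 rows with 24344 Ensembl IDs. The submitters' processing notes name Trim Galore 0.3.7, STAR 2.5.3a, edgeR and build hg19; the counter and annotation are not given in the sources used here. The 194 IDs on several rows had the same counts on each and were taken once. Levels are TMM-scaled counts per 1e6 (CPM) over all libraries. Exons, coordinates and gene types came from GENCODE 44 on GRCh37, and overlaps from bedtools 2.31.1.

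Members and gene lists were chosen with earlier results of these data known. Calls came from edgeR 4.0.16 quasi-likelihood tests in R 4.3.3 (filterByExpr, TMM, adjusted p under 0.05, absolute log2 fold change over 1), fitted on 9 A431 libraries and on 12 MDA-MB-231 libraries, for 6 comparisons. DESeq2 1.42.0 and other filters, scalings and left-out libraries were tried. The edgeR tests were tested on simulated data. Genes were named by rule: the 12 of highest CPM in doxorubicin, the 4 of largest fold each way per comparison among called genes with libraries that do not overlap, up to 4 per list, those at the thresholds, the extremes of the CKI plus doxorubicin to doxorubicin ratio, and the highest in vehicle control and in untreated MDA-MB-231. Some genes that the rule names are not reported here. Others, among them PSG8, TNFSF18, LMOD1, FBP1 and TOX in the CKI comparison, were named after their values were seen. Same-numbered libraries did not pair (mean correlation of deviations -0.03 in A431 and -0.04 in MDA-MB-231).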

Additional observations from a re-analysis of the deposited data

Results flagged for a closer look

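4 members stood on opposite sides of their control with CKI in the 2 lines, with libraries that did not overlap in either line and a call in at least 1 line. Over all IDs with a count, 32.9% lay above vehicle control in this way in A431 and 17.2% below untreated cells in MDA-MB-231. The share of all IDs that did both was not counted. Members were low in A431 controls through the rule, so a fall in A431 could seldom be seen. MIR137HG had a log2 fold change of 2.31 in A431 and -1.04 in MDA-MB-231, and TOX, a factor of T cell development, 2.43 and -1.01. FBP1 had 3.43 and -0.31, and OLFML2B, an olfactomedin-like matrix protein, 2.33 and -0.83, and neither was called in MDA-MB-231. The control was vehicle in A431 and untreated cells in MDA-MB-231, and the difference between the lines was not tested. OLFML2B lost its A431 call by edgeR without the first or the third library of either group (adjusted p 0.0577 to 0.0724). In MDA-MB-231 the size of the TOX difference fell under 1 without the first untreated library (-0.90) or the third CKI library (-0.83), and that of MIR137HG without the third untreated library (-0.88) or the third CKI library (-0.998). TOX and OLFML2B were named after their values were seen.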

How the results depend on the processing

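The number of members depends on the count thresholds. It was 249 as reported, 43 with no untreated count allowed, 718 with a doxorubicin minimum of 10 and 47 with a minimum of 50, and 266 to 302 with a library left out. With each library left out in turn, the number of members called was 215 to 228 for CKI plus doxorubicin against vehicle control, 204 to 212 against CKI, 52 to 62 for CKI against vehicle control, 23 to 28 for 5-FU, 20 to 26 for CKI in MDA-MB-231 and 18 to 22 for CKI plus 5-FU. Requiring 10 counts in every library of 1 of the compared groups left 22 members testable for CKI against vehicle control, of which 21 were called against 65. Calling on the adjusted p alone gave 45 members for 5-FU (22 higher, 23 lower), 44 for CKI (27 and 17) and 45 for CKI plus 5-FU (26 and 19) in MDA-MB-231, against 26, 24 and 20. With a replicate block, 58 members were called for CKI against vehicle control and 23 for CKI in MDA-MB-231, and the counts of the other 4 comparisons were as reported. The numbers did not pair the libraries, with correlations of -0.16 to 0.09 in A431 and -0.29 to 0.12 in MDA-MB-231.

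Every other alternative count stayed within 1.5 times the reported one. Over 239 results for named genes, 3072 alternatives kept the direction, 3000 of them with the call, and 24 results lost a call at least once, mostly with a library left out. These results include CKI plus doxorubicin differences of genes that passed the filter only through those libraries and had to differ. A gene that an alternative filter removed was not counted as a lost call, so these numbers overstate how well the calls held. Depth limits the CKI comparison: 164 of the 208 members tested had under 10 counts in every vehicle control and CKI library.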
